A study of Mus musculus with 3 samples.

Results

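The 40 mitosis genes described here are 40 of the 31053 genes counted in single cells of mouse ear epidermis. They were taken by symbol from a list of genes that act in or peak around cell division, and all 40 had UMIs in the basal cells of each library. A UMI (unique molecular identifier) stands for a captured transcript. The cells came from ear skin of C57BL/6N mice, an inbred laboratory strain, that were 9 weeks old, and the samples form 1 group of 3 replicate libraries with no treatment. The labels name no transgene, sex or pooling. They also do not say if each library is from its own animal, and a p-value here may reflect technical spread alone.

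Mitosis is the step in which copied chromosomes are separated into daughter cells. Cyclin B with Cdk1 drives entry, Aurora and Polo kinases build the spindle, the checkpoint kinases hold the cell until every kinetochore is attached, and the anaphase-promoting complex with Cdc20 then destroys securin and the cyclins. Most genes of this group are transcribed in a late wave of the cell cycle. In epidermis, division is known mainly from the basal layer and cells stop dividing as they move up through the spinous and granular layers.

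Cells were split into classes by keratin and marker UMIs, none of them a mitosis gene. Basal cells had 0.5% or more of their UMIs from Krt5 and Krt14 and less than 0.5% from Krt1 and Krt10. Transitional cells had 0.5% or more from both pairs, and spinous cells only from Krt1 and Krt10, with less than 1% from Lor. Granular cells had 1% or more from Lor, and follicle cells had UMIs of at least 2 of Sox9, Fst, Lgr5, Cd34 and Wif1. This gave 2312 basal, 196 transitional, 2099 spinous, 424 granular and 122 follicle cells, and 187 cells met no rule. The summed levels of the basal, spinous, granular and follicle marker lists were each highest in the class they name among these 5, except that the spinous list reached 44455 to 46840.4 CPM (UMIs per 1000000 UMIs of a class in a library) in granular cells against 33292 to 36872 in spinous cells. These lists include the keratins, Lor and follicle genes that cut the classes, so this order was largely fixed by the rules. Replicate 1 had 31 transitional and 32 follicle cells, the fewest of the 3 libraries.

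After filtering, the libraries held 944, 2212 and 2184 cells, with median totals of 14569.5, 9238 and 11282 UMIs per cell. Median depth also differed between classes, with 8452 UMIs in basal, 10706 in transitional, 15047 in spinous and 19883 in granular cells. The libraries shared 16 cell barcodes, of which 11 passed the filters. UMI counts stand for transcripts and not fragments, so levels of different genes were not divided by gene length. Intervals given for shares and ratios cover counting error only.

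In basal cells the mitosis genes were concentrated in a minority of cells that carried most of them together. Of the 2312 basal cells, 715 had no UMI of the 40 genes, 544 had 1, 331 had 2 and 64 had 4, whereas 208 had 100 or more. The 417 basal cells with 10 or more UMIs, 18.0% of the class, held 95.9% of all basal UMIs of these genes. A median of 29 of the 40 genes was detected in each of those cells, and 287 of them had 20 or more. The choice of 10 UMIs was made after the distribution was seen.

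**Figure D1:**
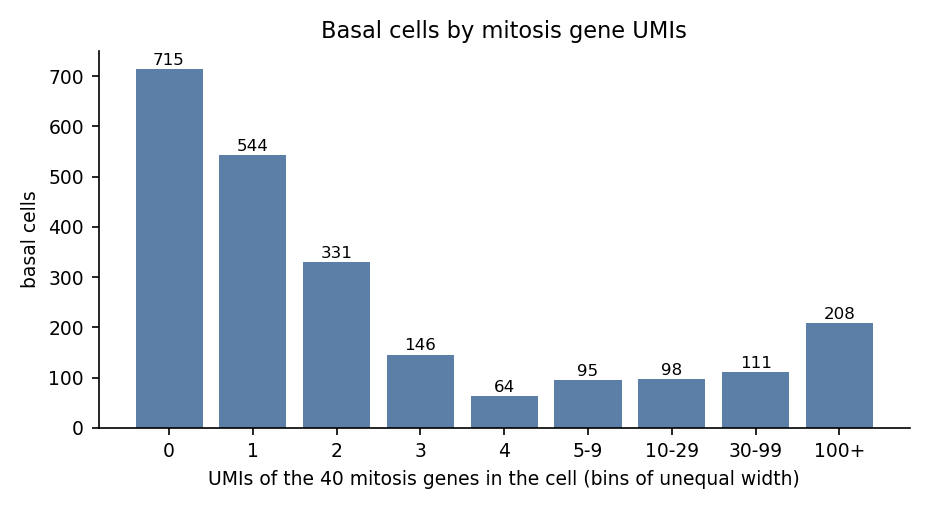
Number of basal cells (vertical axis) by the number of UMIs of the 40 mitosis genes in the cell (horizontal axis, bins of unequal width), all 3 libraries together. Counts fall from 715 cells with none to 64 with 4, and 208 cells carry 100 or more.

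Replicate 2 stood below the other libraries for every one of the 40 genes in basal cells. The summed level was 3109, 2199.7 and 3275 CPM in replicates 1, 2 and 3 (2861 ± 579, SD, n = 3). The share of basal cells with 10 or more UMIs was 20.4% in replicate 1 (exact 95% binomial interval 16.7 to 24.4), 13.2% in replicate 2 (11.1 to 15.6) and 21.6% in replicate 3 (19 to 24.4). Within those cells the summed level was 11214, 12033 and 10284 CPM, at median depths of 17035, 9154 and 13234 UMIs. The cut used the same UMIs and asks for a higher CPM in shallower cells, so no order was read from these levels. Over all basal cells median depth was also lowest in replicate 2, at 12198, 7367 and 8613 UMIs per cell in replicates 1, 2 and 3. With each cell thinned to 3000 UMIs, 19.3%, 14.3% and 23.3% of basal cells had 3 or more UMIs of the set. The part of depth in the lower share was not tested.

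The 10 genes with the highest basal means supplied 56.3% of the summed level. Ube2c, which encodes the ubiquitin-conjugating enzyme of the anaphase-promoting complex, had 273, 186 and 272 CPM (244 ± 49.8, SD, n = 3). Top2a, the topoisomerase that untangles and compacts chromosomes, had 251, 185 and 277. The centromeric histone gene Cenpa had 182, 138 and 185, lowest in replicate 2 like every member.

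Birc5, the survivin subunit of the chromosomal passenger complex, had 176, 117 and 188 CPM, and its partner Cdca8 (borealin) had 140.0, 81.1 and 139.6. The kinetochore gene Cenpf had 156, 121 and 178, and the spindle gene Nusap1 had 151, 108 and 163. All 4 were lowest in replicate 2. The proliferation marker Mki67 had 146, 108 and 163, Cdca3 had 145, 102 and 149, and the kinase gene Cdk1 had 135, 82.1 and 135. At the other end, the checkpoint kinase gene Bub1 had the lowest basal mean of the 40, 6.44 CPM, from 7.82, 3.6 and 7.89.

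By role, the 4 cyclin and Cdk1 genes summed to 309 ± 77.9 CPM in basal cells, the 4 passenger complex genes to 380.4 ± 97.5, and the 6 centromere and kinetochore genes to 419 ± 74.3 (SD, n = 3). The 9 spindle motor and microtubule genes summed to 466 ± 76.1. The 3 checkpoint kinase genes Bub1, Bub1b and Ttk gave the smallest sum, 42.8 ± 9.68. Most of the genes appeared in basal cells together with others of the set. Of the basal cells with a UMI of Hmmr, a spindle-associated protein, 99.6% had 2 or more UMIs of the other 39 genes. This share was lowest for Pttg1 (securin, the inhibitor of separase) at 43.5%, followed by the mitotic spindle gene Ckap2l at 80.6% and the midzone bundling gene Prc1 at 81.3%.

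Transitional cells had lower levels of most mitosis genes than basal cells. The summed level was 458, 1104 and 1059 CPM in replicates 1 to 3 (873 ± 361, SD, n = 3), below all 3 basal values. A single cell held 75.5%, 34.3% and 24.7% of the transitional UMIs of the set in replicates 1, 2 and 3, and that of replicate 1 was marked as a doublet by Scrublet. In edgeR's quasi-likelihood test with Benjamini-Hochberg adjustment over all 10806 genes tested, 33 of the 40 members were lower, 0 were higher and 7 were called in neither direction, where 10.2% of all genes tested were called lower and 23% in either direction. The median log2 fold change was -1.58 over the members and -0.01 over all genes. The 0 higher calls stand beside 12.8% of all genes called higher, and DESeq2 also called 0 higher and 22 lower.

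The largest fall that passed the test was in the kinase gene Aurkb, with basal values of 67.8, 43.5 and 66.5 CPM and transitional values of 4.87, 18.1 and 8.44. Its log2 fold change was -2.37 ± 0.34 (SE; adjusted p = 1.85e-05, edgeR). Ube2c was at 12.2, 59.6 and 58.2 in transitional cells and fell by 2.21 ± 0.38 on the log2 scale (adjusted p = 0.000121, edgeR). In both genes every transitional library lay below every basal library. Top2a and Mki67 fell less, by 1.10 ± 0.31 (adjusted p = 0.0127) and 1.07 ± 0.25 (adjusted p = 0.00293), both by edgeR. Without replicate 3 the call of Top2a was lost (adjusted p = 0.0815, edgeR), and so was that of Nusap1 (0.059). In DESeq2 neither Top2a nor Mki67 passed, with adjusted p = 0.291 and 0.211, and Ube2c missed at 0.0824.

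Calls by role were 4 of 4 lower for the cyclins and Cdk1, 4 of 4 for the passenger complex, 6 of 6 for the centromere and kinetochore genes and 7 of 9 for the spindle genes. The 7 members called in neither direction were Bub1, Ttk, Plk1, Pttg1 and the kinesin genes Kif11, Kif20a and Kif2c. Plk1, the Polo kinase gene, was at 34.2, 19.3 and 34.0 CPM in basal and 2.43, 23.3 and 27.8 in transitional cells. Its groups overlapped, with a log2 fold change of -0.39 ± 0.34 (adjusted p = 0.455, edgeR). At other keratin thresholds Plk1 was called lower, with a log2 fold change of -3.98 at 1% (adjusted p = 0.0127) and -0.87 at 0.25% (0.0223). Kif2c, a microtubule-depolymerizing kinesin, was at 13.5, 10.7 and 16.0 against 4.87, 9.07 and 9.28, which did not overlap, with a log2 fold change of -0.67 ± 0.36 (adjusted p = 0.20, edgeR), and was also called lower at both other thresholds (adjusted p = 0.0317 and 0.0174). Kif11, the spindle-pole separating kinesin, was at 24.4, 18.2 and 27.9 against 7.3, 15.5 and 11.8 (log2 fold change -0.91 ± 0.41, adjusted p = 0.116, or -1.30 and 0.0389 without replicate 2, edgeR). Its groups did not overlap. Kif20a, a kinesin of late mitosis, was at 14, 10.4 and 22 against 0, 3.89 and 11.8, and Bub1 at 4.87, 1.3 and 1.69 in transitional cells, and both overlapped with basal cells (adjusted p = 0.102 and 0.103, edgeR). Without the low-count filter Kif11 (0.016) and Kif20a (0.0112) passed, and at 0.25% Kif11 (0.00696) and Bub1 (0.00916) did.

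The lower transitional level went with fewer cells rich in mitosis transcripts. Cells with 10 or more UMIs made up 3.23%, 5.88% and 12.4% of transitional cells, against 20.4%, 13.2% and 21.6% of basal cells, and the difference was in the same direction in 3 of 3 libraries (exact two-sided sign-flip permutation p = 0.25, the smallest that 3 libraries allow). These 17 transitional cells had a pooled level of 5950.5 CPM, with 5537 of Krt14 and 13386 of Krt10, and a median of 26 of the 40 genes detected. The 417 basal cells of that kind had 10941, with 14619 of Krt14 and 362 of Krt10. Below 10 UMIs the summed level was 137 in transitional and 159 in basal cells. For the 38 genes other than Pttg1 and Ttk it was 68.5 and 102. When cells with 10 or more UMIs were left out of all classes, 1 member was lower and 1 higher in transitional against basal cells. That filter uses the UMIs of the tested genes and caps every class, so nothing is read from the calls it loses, in this or the other comparisons. Scrublet marked 3 of the 17 cells as doublets, their median depth was 16735 against 10039 UMIs in the other transitional cells, and the part of doublets in the transitional level was not tested.

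Spinous cells carried the mitosis genes at a median of 1.82% of the basal mean per gene, from 0.586% for Cdk1 to 158% for Ttk. In spinous against transitional cells 37 members were lower, 1 was higher and 2 were called in neither direction by edgeR's quasi-likelihood test, where 14.8% of all genes tested were called lower, 19.8% higher and 34.6% in either direction. The median log2 fold change was -3.63 over the members and 0.04 over all genes. With the keratin threshold at 1% in place of 0.5% only 41 transitional cells were left, and 0 members were lower and 1 higher. The log2 fold changes were smaller too, at -0.02 for Ube2c, -0.11 for Cdk1, -1.06 for Top2a and -2.38 for Mki67. At that threshold 36 members were called lower in transitional against basal cells. With cells of 10 or more UMIs left out, 1 member was lower in spinous against transitional cells.

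Cdk1 had 9.73, 50.5 and 22.8 CPM in transitional cells and 0.665, 0.555 and 0.845 in spinous cells, which fell by 5.03 ± 0.62 on the log2 scale (adjusted p = 1.13e-06, edgeR). Plk1 reached 0.133, 0.396 and 0.384 in spinous cells and fell by 5.54 ± 0.59 (adjusted p = 1.95e-07, edgeR). In both genes every spinous library lay below every transitional library. Tpx2, which activates Aurora A on the spindle, had 9.73, 23.3 and 25.3 against 0.133, 0.555 and 0.307 and fell by 5.44 ± 0.53 (adjusted p = 5.94e-08, edgeR). Pbk, a mitotic kinase gene, went from 4.87, 15.5 and 20.2 to 0, 0.792 and 0.615. Cdk1, Tpx2 and Pbk had the lowest spinous shares of the basal mean, 0.586%, 0.624% and 0.688%. Across both steps, 32 of the 40 members were called lower from basal to transitional and again from transitional to spinous, and 8 were not, where 5.42% of all genes tested were called lower in both. The steps share the transitional libraries, and at a keratin threshold of 1% the second step held 0 lower calls among the members.

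**Figure D2:**
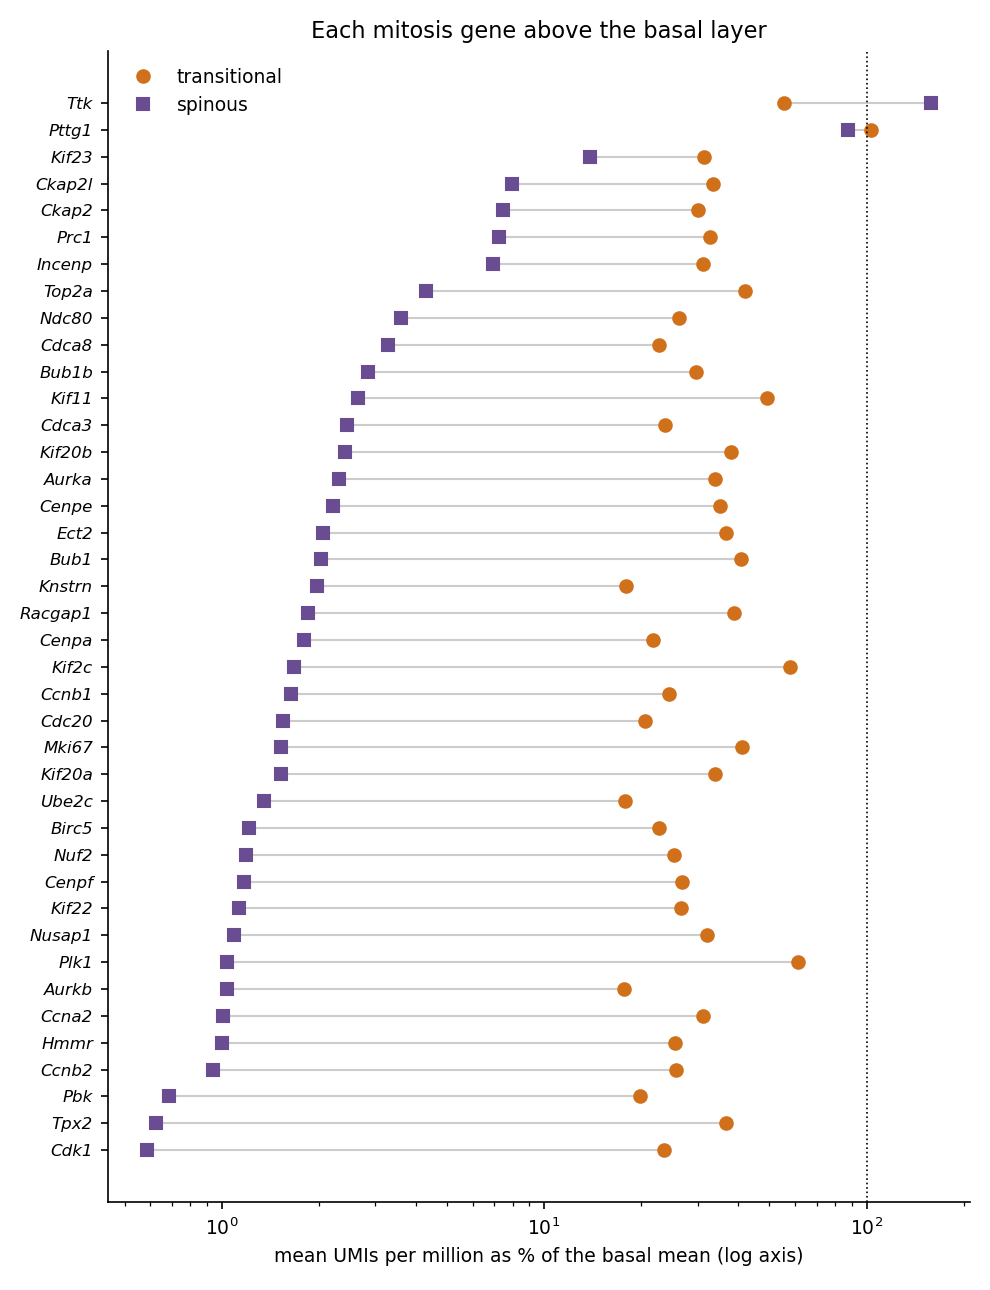
Mean CPM of each of the 40 mitosis genes in transitional (circles) and spinous (squares) cells as a percentage of its basal mean, on a log axis, with the dotted line at the basal mean. Spinous values are under 5% of basal for 33 genes, while Pttg1 stands at 87.7% and Ttk at 158%.

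Besides Pttg1 and Ttk, a few genes had spinous levels above 5% of their basal mean. Kif23, a kinesin of the central spindle, had the third-highest spinous share, 13.9% of its basal mean. It had 47.1, 35.2 and 52.4 CPM in basal, 9.73, 15.5 and 16.9 in transitional and 4.52, 5.55 and 8.68 in spinous cells, and the last step did not pass the test (log2 fold change -0.84 ± 0.40, adjusted p = 0.109, edgeR). It passed scaled to total UMIs (-1.19, adjusted p = 0.0295), with no low-count filter (-0.82, 0.0328) and at a keratin threshold of 0.25% (-1.08, 0.0062), and turned to 0.63 at 1%. Its 217 spinous UMIs lay in 185 cells, and 7.37% of them in cells with 10 or more UMIs of the set. A Kif23 UMI was found in 8.81% of spinous cells and in 1.89% of the deeper granular cells, and free RNA in the droplets was not measured. Ckap2l kept 7.93% of its basal mean, Ckap2 7.46%, Prc1 7.24% and Incenp, the scaffold of the passenger complex, 6.95%. Prc1 overlaps the gene Rccd1 in the annotation, and the sources do not state if strand was used in counting.

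Pttg1 and Ttk departed from the rest of the set. Pttg1 was at 67.1, 59.4 and 60.0 CPM in basal, 73.0, 66.1 and 53.1 in transitional, and 61.4, 52.9 and 49.3 in spinous cells, and these ranges overlapped. Neither step passed the test, with log2 fold changes of 0.05 ± 0.14 (adjusted p = 0.872) and 0.14 ± 0.13 (adjusted p = 0.474), both by edgeR. With total UMIs as the scale the second value was -0.21. In granular cells it was at 24.9, 24.7 and 19.0, below every other class, and fell by 0.55 ± 0.12 from spinous cells (adjusted p = 0.00034, edgeR), or by 0.32 without replicate 1 (adjusted p = 0.0741). Of the basal Pttg1 UMIs 32.0% lay in cells with 10 or more UMIs of the set, against 98.4% for the cyclin gene Ccna2. A UMI of Pttg1 was found in 38% of basal, 51.4% of spinous and 30.4% of granular cells, whose median depths differ as given above.

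Ttk, the checkpoint kinase also called Mps1, was the only member called higher in spinous than in transitional cells. It had 18.4, 13 and 19.9 CPM in basal, 2.43, 11.7 and 14.3 in transitional, and 26.2, 25.6 and 29.1 in spinous cells. Every spinous library lay above every basal and transitional library. The rise over transitional cells was 1.62 ± 0.30 on the log2 scale (adjusted p = 0.000166, edgeR). In granular cells it was at 11.3, 5.99 and 5.42 and fell by 1.28 ± 0.23 from spinous cells (adjusted p = 3.27e-05, edgeR). The other checkpoint kinase genes did not share this order, since Bub1b had 23.5, 15.1 and 19.2 in basal and 0.399, 0.475 and 0.768 in spinous cells.

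The company in which Ttk was found also differed by class. In basal cells 97.5% of cells with a Ttk UMI had 2 or more UMIs of the other 39 genes, and 96.7% of Ttk UMIs lay in cells with 10 or more. In spinous cells these values were 55.6% and 3.0%. Ttk was found in 583 spinous cells, 27.8% of the class, and 249 of them had no UMI of the 38 genes other than Ttk and Pttg1. The share was alike in the libraries, with 112 of 360, 223 of 917 and 248 of 822 spinous cells. In granular cells 9.2% had a Ttk UMI, at a higher median depth.

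Ttk lies on chromosome 9 of GRCm38, at 83834689 to 83872389 on the plus strand. Elovl4, a fatty acid elongase gene of differentiating keratinocytes, lies at 83778692 to 83806277 on the minus strand, with its start 28412 bases from that of Ttk. Elovl4 was at 10.4 ± 5.67 CPM in basal, 218 ± 71.3 in transitional, 589.6 ± 55.1 in spinous and 481 ± 42.1 in granular cells (SD, n = 3). In spinous cells with a Ttk UMI it was at 711, 625 and 760.0 CPM, against 502, 497 and 582 in spinous cells without one. The part of this neighbour in the Ttk counts was not tested, and Elovl4 was looked at because of the Ttk values. Among 83 other mitosis genes tested, 2 were also higher in spinous than in transitional cells, beside 54 that were lower. Espl1, the separase that Pttg1 inhibits, was at 13.8, 15.5 and 17.7 against 7.3, 9.07 and 6.75 CPM (log2 fold change 1.43 ± 0.32, adjusted p = 0.00112, edgeR). The centromere gene Cenpi was at 13.6, 12.8 and 15.8 against 0, 3.89 and 6.75 (log2 fold change 2.00 ± 0.39, adjusted p = 0.000355, edgeR). In both, every spinous library lay above every transitional library.

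**Figure D3:**
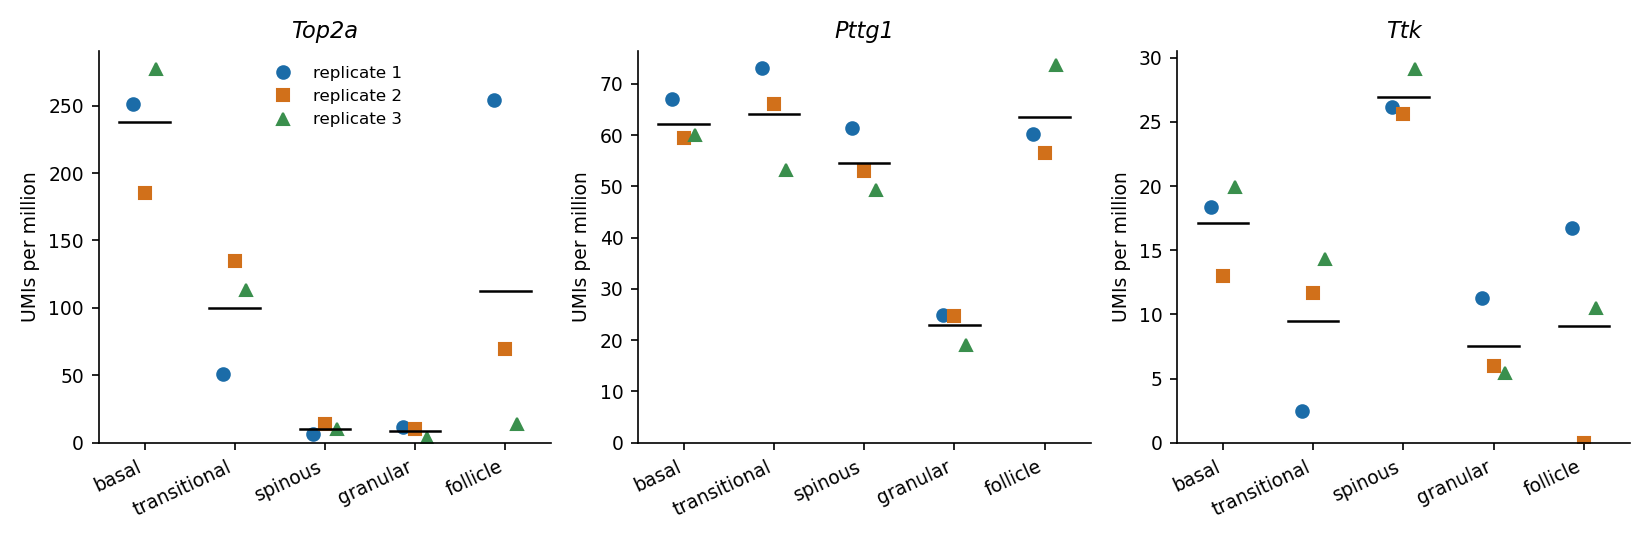
CPM of Top2a, Pttg1 and Ttk (vertical axes, each from 0) in 5 cell classes, with a point per library and a bar at the mean of the 3 libraries. Top2a is at 185 to 277 in basal and 6.65 to 13.9 in spinous cells, Pttg1 is at 49.3 to 61.4 in spinous cells, and the 3 spinous values of Ttk, 25.6 to 29.1, lie above all other classes.

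Counting cells rather than UMIs gave a different picture. The share of cells with 3 or more UMIs of the 40 genes was 37.8%, 22.9% and 36.2% in basal and 46.1%, 29% and 35.6% in spinous cells, although the summed spinous level was 134, 162 and 161 CPM against 2199.7 or more in basal cells. Pttg1 and Ttk supplied 65.5%, 48.4% and 48.7% of the spinous UMIs of the set and 2.75%, 3.29% and 2.44% of the basal ones. The share goes against the summed level, and spinous cells were deeper, so no order was read from it. Thinned to 3000 UMIs per cell, with 214 basal and 68 spinous cells too shallow and left out, the share was 18.9% ± 4.51 in basal, 9.39% ± 1.48 in transitional and 1.25% ± 0.118 in spinous cells (SD, n = 3). Without Pttg1 and Ttk the thinned spinous share was 0.474% ± 0.42, and that of basal cells 17.9% ± 4.94. The thinned share was lower in spinous than in basal cells in 3 of 3 libraries (exact two-sided sign-flip permutation p = 0.25, the smallest possible).

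**Figure D4:**
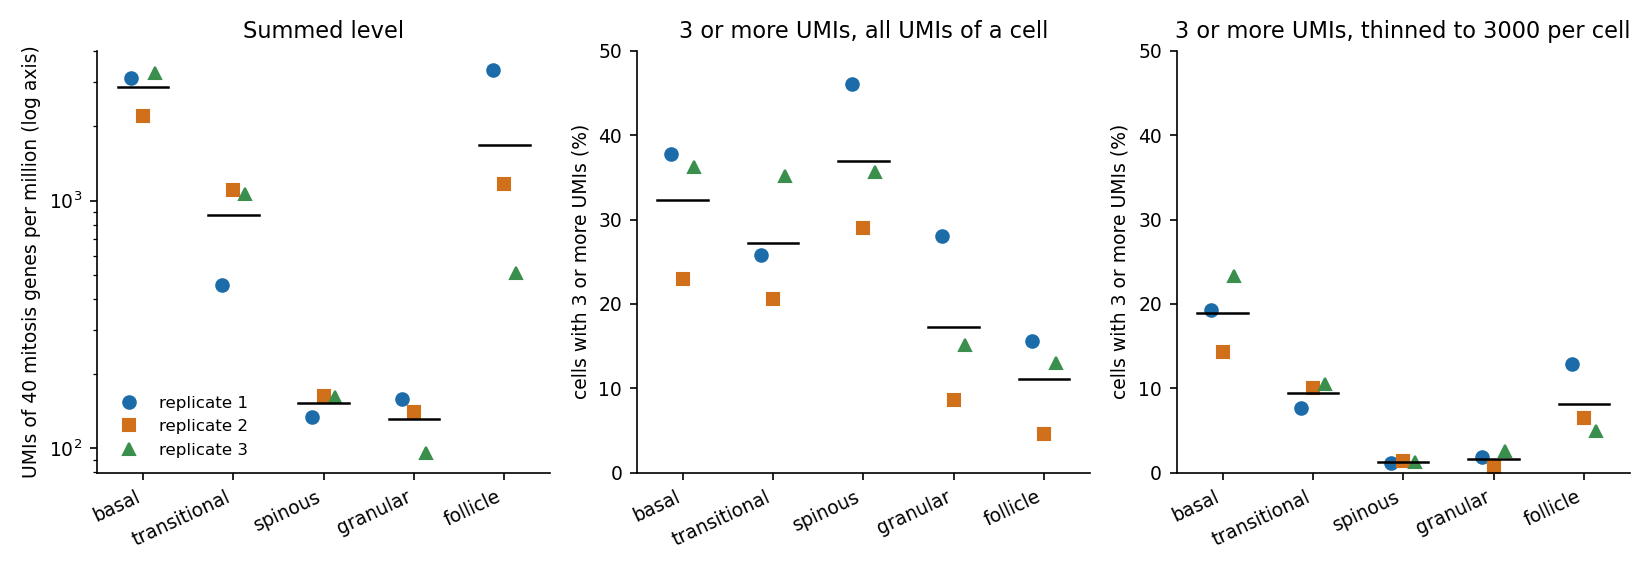
Summed CPM of the 40 mitosis genes (left, log axis) and share of cells with 3 or more of these UMIs before (middle) and after (right) thinning each cell to 3000 UMIs, in 5 classes. Points are the 3 libraries and bars their means. The unthinned share is 32.3% in basal and 36.9% in spinous cells, and the thinned share 18.9% and 1.25%.

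The promoters of the members were searched for motifs because the genes moved together. RefSeq windows of 300 bases, from 250 before to 50 after the start site, were at hand for 34 of the 40 members (build GRCm38.p6), not for Tpx2, Ccna2, Kif20a, Aurkb, Incenp and Pbk. The motifs, on both strands, were the CCAAT box (CCAAT), the cell cycle homology region (TTTGAA or TTCGAA) and E2F-type sites (TTTGGCGC, TTTCGCGC, TTTGGCGG or TTTCCCGC). A CCAAT box was in 26 of 34 members (76.5%) and 41.1% of all 27025 genes with a window, and a cell cycle homology region in 27 (79.4%) and 21.7%. Both were in 24 members (70.6%) and 8.61% of all genes, with 1 overlap of the motifs in members. An E2F-type site was in 1 member, Cdk1, and in 2.7% of all genes. A match describes the letters and is no evidence of binding.

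Promoters are shown of 4 members that were lower in both steps and of Ttk, which was not, from 250 bases before to 30 after the RefSeq start, 5′ to 3′ on the gene's strand, with CCAAT boxes and cell cycle homology regions of either strand in capitals. They are Ube2c (chr2:164769679-164769958, plus strand), Cdk1 (chr10:69352883-69353162, minus), Ccnb2 (chr9:70421525-70421804, minus), Hmmr (chr11:40733408-40733687, minus) and Ttk (chr9:83834439-83834718, plus).
Ube2c: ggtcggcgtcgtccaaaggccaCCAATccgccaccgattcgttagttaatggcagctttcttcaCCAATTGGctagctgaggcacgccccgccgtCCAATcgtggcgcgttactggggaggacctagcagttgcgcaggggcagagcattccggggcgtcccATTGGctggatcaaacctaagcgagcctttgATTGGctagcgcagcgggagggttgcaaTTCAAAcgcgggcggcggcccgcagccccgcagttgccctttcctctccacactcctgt
Cdk1: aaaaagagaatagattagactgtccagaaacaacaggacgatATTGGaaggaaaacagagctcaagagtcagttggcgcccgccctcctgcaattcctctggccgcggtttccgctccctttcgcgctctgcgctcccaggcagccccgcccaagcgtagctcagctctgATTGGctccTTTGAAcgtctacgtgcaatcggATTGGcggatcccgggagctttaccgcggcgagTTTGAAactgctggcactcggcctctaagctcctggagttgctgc
Ccnb2: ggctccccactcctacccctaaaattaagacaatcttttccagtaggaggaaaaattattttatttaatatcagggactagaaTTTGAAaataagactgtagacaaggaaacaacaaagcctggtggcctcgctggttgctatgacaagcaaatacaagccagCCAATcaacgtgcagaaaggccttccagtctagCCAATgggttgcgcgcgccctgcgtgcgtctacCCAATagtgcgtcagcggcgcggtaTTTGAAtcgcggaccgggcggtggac
Hmmr: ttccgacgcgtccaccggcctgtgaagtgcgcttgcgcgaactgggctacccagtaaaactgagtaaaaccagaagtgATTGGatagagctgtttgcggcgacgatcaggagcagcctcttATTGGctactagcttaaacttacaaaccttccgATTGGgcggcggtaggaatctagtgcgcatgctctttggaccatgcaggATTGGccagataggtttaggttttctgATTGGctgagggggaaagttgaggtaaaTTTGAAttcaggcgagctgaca
Ttk: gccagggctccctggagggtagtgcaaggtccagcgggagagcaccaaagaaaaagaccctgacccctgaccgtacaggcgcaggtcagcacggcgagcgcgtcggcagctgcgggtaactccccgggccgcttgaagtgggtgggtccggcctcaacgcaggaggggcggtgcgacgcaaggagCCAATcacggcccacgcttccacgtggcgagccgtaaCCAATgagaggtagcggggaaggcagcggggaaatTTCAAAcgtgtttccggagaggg
Counting both strands, Ube2c holds 6 CCAAT boxes and Hmmr 5. Ttk holds 2 CCAAT boxes and 1 cell cycle homology region, the same kinds of motif as the 4 other promoters shown. Not all genes that fell hold them. The windows of Nusap1, Birc5, Nuf2 and Knstrn, which were lower in both steps, hold neither. The Pttg1 window also holds neither, but its RefSeq start lies 270 bases downstream of the GENCODE start, so the window misses the bases before the latter.

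Granular cells, the last living layer, held the set at 158, 140.0 and 95.4 CPM (131 ± 32.2, SD, n = 3), against 134, 162 and 161 in spinous cells. Replicate 3 was lowest and lay below every spinous library, and the other 2 overlapped with spinous cells. In granular against spinous cells 13 members were higher, 3 lower (Kif23, Pttg1 and Ttk) and 24 neither by edgeR's quasi-likelihood test, where 30.3% of all genes tested were called higher and 39.1% lower. The members' share of higher calls was near that of all genes, and their share of lower calls was below it. The median log2 fold change was 0.95 over the members and -0.25 over all genes. Scaled to total UMIs, which moved the median of all genes from -0.25 to -0.96, 5 members were higher and 5 lower.

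Much of the granular signal sat in few cells. The 9 granular cells with 10 or more UMIs, of 424, held most of the UMIs in replicates 1 and 2 (62% and 61.7%) and 45.7% in replicate 3, and the top cell alone held 57.1%, 61.7% and 19.4%. The single such cell of replicate 2 had 286 CPM of Krt10 and 4211 of Krt14, where other granular cells of that library had 5538 and 138. Without cells of 10 or more UMIs in any class, 3 members were higher in granular than in spinous cells and 7 lower. Ccnb1, the cyclin B1 gene, was at 0, 1.06 and 12.3 CPM in granular cells, where 94.3% of its UMIs lay in such cells. Its call (log2 fold change 3.00 ± 0.73, adjusted p = 0.000993, edgeR) was lost without replicate 3 (1.02, adjusted p = 0.556).

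Cdc20, Cdca8 and Ckap2l were spread more widely in granular cells. Cdc20, the activator of the anaphase-promoting complex, was at 9.5, 6.35 and 9.12 CPM in granular and 1.46, 1.03 and 1.54 in spinous cells, with no overlap. It rose by 3.32 ± 0.40 on the log2 scale (adjusted p = 1.34e-07, edgeR), and 15.5% of its 71 granular UMIs lay in cells with 10 or more UMIs of the set. Cdc20, on the minus strand of chromosome 4 at 118432901 to 118437352, overlaps Elovl1, on the plus strand at 118428093 to 118432953. Only their 3′ ends overlap, and the libraries were made from transcript 5′ ends. Elovl1, a fatty acid elongase gene, was at 292, 339.9 and 317 CPM in spinous and 1623, 1449.7 and 1346 in granular cells. Its part in the Cdc20 counts was not tested.

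The 4 cyclin and Cdk1 genes were all called higher in granular cells. Ccnb2 was at 2.37, 3.88 and 1.23 CPM against 0.133, 0.871 and 0.845 in spinous cells, Ccna2 at 1.78, 2.12 and 1.23 against 0.133, 0.951 and 0.768, and Cdk1 at 4.75, 2.12 and 1.23 against 0.665, 0.555 and 0.845. The groups of these 3 genes did not overlap, but they rest on 20, 14 and 19 granular UMIs, of which 95%, 92.9% and 94.7% lay in the 9 cells with 10 or more UMIs of the set. The kinase gene Pbk, at 5.94, 3.17 and 1.72 against 0, 0.792 and 0.615, did not overlap either, and 92.3% of its 26 UMIs lay in those cells. Nusap1 was at 8.31, 5.29 and 2.46 against 0.266, 3.01 and 1.31, Cenpf at 7.12, 7.76 and 1.72 against 0.399, 2.85 and 2.07, and Birc5 at 6.53, 6.7 and 2.22 against 0.665, 2.3 and 2.92. Cdca3 was at 5.94, 3.88 and 4.68 against 1.86, 3.88 and 3.92. These 4 overlapped on this scale, with adjusted p from 0.0184 for Birc5 to 0.0424 for Cdca3 (edgeR).

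Cdca8 was at 10.7, 5.64 and 5.67 against 3.59, 4.04 and 4.23 CPM (log2 fold change 1.44 ± 0.42, adjusted p = 0.00412, edgeR), and 40.4% of its granular UMIs lay in cells with 10 or more. Ckap2l was at 7.12, 4.58 and 5.67 against 4.66, 5.15 and 3.84, which overlap on this scale (log2 fold change 1.03 ± 0.29, adjusted p = 0.00342, edgeR). Scaled to total UMIs neither passed, with adjusted p = 0.126 for Cdca8 and 0.328 for Ckap2l, and without replicate 3 Ckap2l (0.0933) and the fall of Kif23 (0.161) were lost. Tpx2 was at 1.19, 2.82 and 2.71 against 0.133, 0.555 and 0.307 and rose by 3.37 ± 0.69 (adjusted p = 0.000174, edgeR), on 21 granular UMIs. Bub1, Nuf2 and Ndc80 had 0 UMIs in all granular cells.

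Follicle cells had variable levels of the set, 3365, 1170.4 and 512 CPM in replicates 1 to 3 (1683 ± 1494, SD, n = 3), which overlapped the basal range. They were few and shallow, with 32, 44 and 46 cells, and 8 of the 122 had 10 or more UMIs. The top cell alone held 39.8%, 79.3% and 56.2% of the follicle UMIs of the set. Compared with basal cells 0 members were higher and 9 lower by edgeR's quasi-likelihood test (Aurkb, Cdca3, Ckap2l, Hmmr, Kif2c, Mki67, Prc1, Top2a and Tpx2), where 7% of all genes tested were called lower and 9% higher. The count of lower members was 29 without replicate 1, 3 without replicate 2 and 1 without replicate 3, and 2 by DESeq2. Of the follicle cells, 77 also met a keratin rule.

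Ckap2l had the clearest follicle value, at 26.8, 8.67 and 10.5 CPM against 57.3, 53.5 and 61.4 in basal cells, with no overlap (log2 fold change -2.01, adjusted p = 0.000261, edgeR), and at -1.56 without cells of 10 or more UMIs of the set (adjusted p = 0.201). Prc1 was at 60.2, 47.7 and 21.1 against 97.8, 75.5 and 100.3, also without overlap (log2 fold change -1.25, adjusted p = 0.00578, and 0.175 without replicate 3, both edgeR). Top2a was at 254, 69.4 and 14 against 251, 185 and 277, which overlap, and its call (adjusted p = 0.0462, edgeR) was lost without replicate 2 or 3. Pttg1 was again level, at 60.2, 56.4 and 73.7 in follicle cells.

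Among basal cells, genes outside the set were compared between the 722 cells with 3 or more UMIs of the 40 genes and the 715 with none. The members chose these cells and were not tested. Of 9240 other genes tested, 1368 (14.8%) were higher and 1078 (11.7%) lower in the cells with 3 or more UMIs by edgeR's quasi-likelihood test, and DESeq2 called 606 and 231. The cells with 3 or more were deeper, with a median of 11266 against 6875 UMIs. With cells of 5000 or more UMIs alone, 1230 genes were higher and 980 lower. Of the 722 cells, 305 had 3 to 9 UMIs, and Pttg1 was at 116 CPM in those against 74.7 in cells with 10 to 29.

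All 83 tested genes of a list of other mitosis genes were higher in the cells with 3 or more UMIs, with a median log2 fold change of 4.73 against -0.02 over all genes. Pimreg, a regulator of the step from metaphase to anaphase, was at 69.7, 65.5 and 49.9 TMM-scaled CPM (used for all comparisons within basal cells) and at 0 in all libraries of the other group. Set against a floor of 3 counts over that group, it was at least 97.4-fold higher, and the kinase gene Melk at least 67-fold and Shcbp1 at least 67.8-fold higher. Knl1, the kinetochore scaffold that recruits Bub1, had 808 against 2 UMIs, a ratio of 229 with an exact 95% counting interval of 63.2 to 1893. Of the 12 largest rises, Ncapg, Nek2, Spag5 and Iqgap3 belong to the same list, while Mxd3, a Max-binding repressor known from S phase, and Neil3, a DNA glycosylase gene, do not. Mxd3 was at 83.6, 65 and 73.5 CPM against 0 (at least 122-fold higher).

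Within basal cells many regulators of the late wave moved with the set. Of 22 regulator genes, 16 were higher and 0 lower. Foxm1, the forkhead activator of mitosis genes, was at 33.3, 44.5 and 39.7 CPM against 1.09, 0 and 1.14, a ratio of 63.8 (exact 95% counting interval 21.7 to 311) and an adjusted p of 1.42e-20 by edgeR. Mybl2, its partner in the late wave, was at 10.5, 5.5 and 9.74 against 0, 0.498 and 0.568 (ratio 22.1, exact interval 5.91 to 186), and the repressor gene E2f7 at 12.8, 16.5 and 7.79 against 0, 0 and 0.568. By class Foxm1 was at 16, 12.8 and 19.8 CPM in basal, 7.3, 9.07 and 10.1 in transitional and 0.133, 0.238 and 0.538 in spinous cells, and fell by 4.32 ± 0.60 from transitional to spinous (adjusted p = 6.18e-06, edgeR). From basal to transitional cells its log2 fold change was -0.80 ± 0.37 (adjusted p = 0.13, edgeR), although these groups did not overlap. Most regulators were called in neither direction from basal to transitional and from transitional to spinous cells. In transitional against basal cells 2 were higher and 4 lower, where 12.8% and 10.2% of all genes were. In spinous against transitional cells 2 were higher and 5 lower, where 19.8% and 14.8% of all genes were. E2f2 and Rb1 were the higher ones in both of these steps. In granular against spinous cells 5 regulators were higher, 7 lower and 10 neither, where 30.3% of all genes were higher and 39.1% lower.

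DNA replication genes, which act before mitosis in the cycle, were also higher, 47 of 48 tested, with a median log2 fold change of 1.90. Rrm2, the regulated subunit of ribonucleotide reductase, was at 111, 67.5 and 102 CPM against 0, 2.49 and 2.27 (log2 fold change 5.50 ± 0.25, adjusted p = 1.91e-28, edgeR). Across basal cells ordered by UMIs of the mitosis genes, the replication list and the other mitosis genes followed different courses. The replication list stood at 765 CPM in cells with none, 3401 in cells with 10 to 29 and 4144 in cells with 100 or more. The other mitosis genes stood at 561, 2393 and 9962 in the same bins. Among the 417 cells with 10 or more UMIs, 47 had none of Cdc20, Ccnb1, Plk1 and Aurka, which peak late, and 157 had 10 or more UMIs of these 4. The replication list was at 3525 CPM in the former and 3456 in the latter. By library it was at 3762 and 4162 in replicate 1, 4119.7 and 2816 in replicate 2, and 3281 and 3149 in replicate 3. The libraries thus did not share a direction, and the former set held only 7, 14 and 26 cells in replicates 1 to 3. The split used 4 members, and other members were also lower in the former, with Cenpf at 61.1 and 933, Top2a at 234 and 1179.8 and Mki67 at 244 and 631. Median depth was 8228 and 16865 UMIs in the 2 sets of cells. Depth also differed between the bins, with a median of 6488 UMIs in cells with 10 to 29 and 16432 in cells with 100 or more, and its part was not tested.

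**Figure D5:**
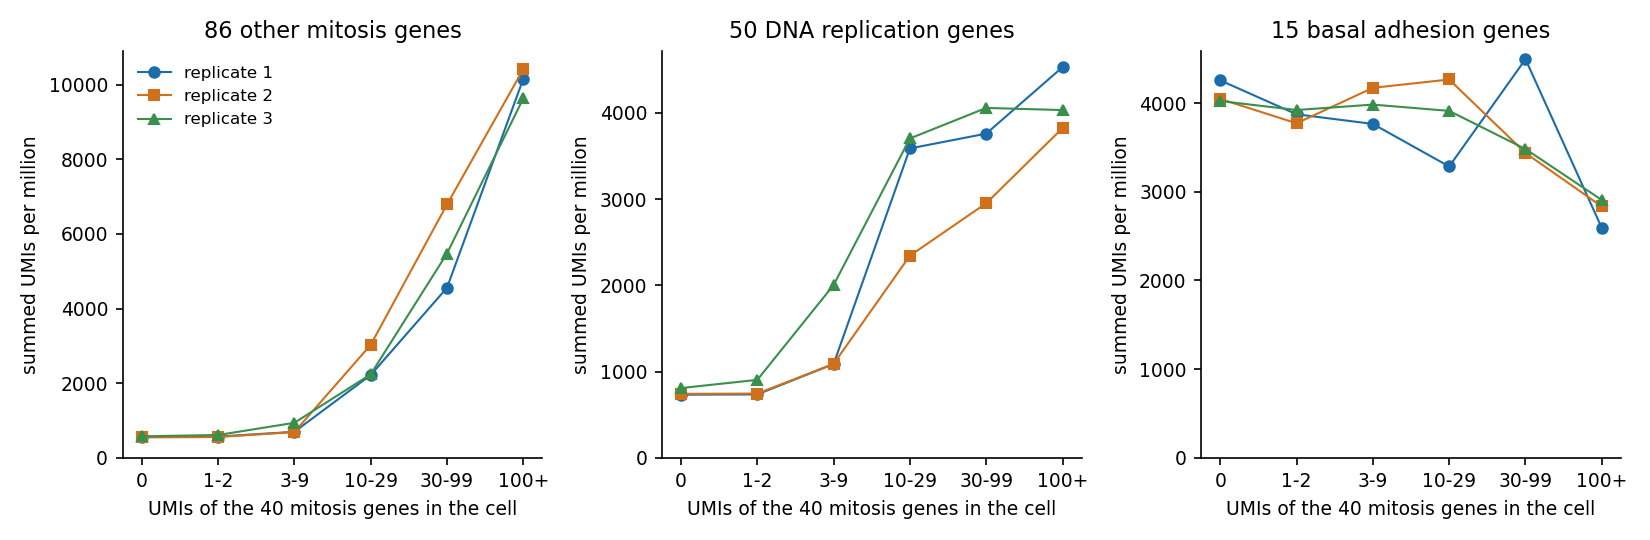
Summed CPM (vertical axes, from 0) of 86 other mitosis genes, 50 DNA replication genes and 15 basal adhesion genes in basal cells, by UMIs of the 40 mitosis genes in the cell (horizontal axis, bins of unequal width), with a line per library. Over all libraries the replication list is at 3401 in the bin of 10 to 29 and 4144 at 100 or more, and the other mitosis genes at 2393 and 9962.

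Of 10 tested D cyclin and CDK inhibitor genes, 5 were higher and 2 lower in cells with 3 or more UMIs. Cdkn2d, an INK4 inhibitor of Cdk4 and Cdk6, was at 188, 181 and 164 CPM against 22.9, 23.4 and 13.1 (log2 fold change 3.18 ± 0.13, adjusted p = 1.94e-30, edgeR), with no overlap. Cdkn2c was at 117, 104 and 90.6 against 15.2, 24.4 and 17.6. Ccnd2, a D cyclin of the first gap phase, was at 402, 401 and 424 against 814, 812 and 973 and fell by 1.08 ± 0.07 (adjusted p = 5.89e-22, edgeR), and Ccnd1 fell by 0.47 ± 0.09 (adjusted p = 1.48e-05, edgeR). In transitional against basal cells 3 of 11 tested genes of this list were higher and 4 lower, where 12.8% and 10.2% of all genes were. Cdkn1a and Cdkn2b were higher, by 1.93 ± 0.18 and 4.72 ± 0.32 on the log2 scale (adjusted p = 2.3e-08 and 2.06e-10, edgeR). Cdkn2d, Ccnd2 and Ccnd1 were lower, by 1.69 ± 0.22, 1.16 ± 0.17 and 0.67 ± 0.14 (adjusted p = 5.15e-06, 2.22e-05 and 0.000802, edgeR).

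Genes of basal adhesion were 9 lower and 0 higher of 15 in basal cells with 3 or more UMIs, with a median log2 fold change of -0.27. Dst, which links keratins to hemidesmosomes, was at 441, 534 and 452 CPM against 691, 864 and 745 (log2 fold change -0.69 ± 0.06, adjusted p = 7.55e-14, edgeR). Of 13 suprabasal differentiation genes 1 was higher, Krtdap by 0.24 ± 0.06 (adjusted p = 0.00242, edgeR), and 4 were lower. Among the 12 largest falls, the skin chemokine gene Ccl27a was at 114, 160.1 and 122 CPM against 192, 519 and 297 (log2 fold change -1.31 ± 0.09, adjusted p = 3.63e-19, edgeR). Its groups did not overlap. Fbxo32 fell by 1.42 ± 0.20 and Rspo3, a Wnt-enhancing ligand gene, by 1.30 ± 0.23 (adjusted p = 1.72e-08 and 7.77e-06, edgeR). Further falls of 1.19 to 1.5 on the log2 scale were in Pik3ip1, Adamtsl5, Slitrk6, Kcnh1, Crebrf, Rtn2, Slc43a1, Cebpd and Calcoco1.

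Markers of other cell types were checked in the same classes. Of the T cell list, Cd3e, Cd3g, Ptprc and Nkg7 were at 0 in transitional cells, where the whole list of 6 summed to 43.8 to 127 CPM. Of the Langerhans list of 5, Cd207 and Ptprc were at 0 there, and the list summed to 80.3 to 139.9 CPM. The Langerhans list was at 707 to 906 CPM in granular against 124 to 179 in spinous cells, with all 5 markers detected in both, and its part in the granular comparison was not tested. In basal cells the T cell list summed to 271 to 339 CPM with all 6 markers detected, and its part in the basal levels of the mitosis genes was not tested. The list includes Thy1, its only marker detected in follicle cells, at 28.1 to 36.8 CPM. How much of the basal sum came from Thy1 is not given here.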

How the data were processed

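Ear epidermis of 3 replicate libraries of 1 group was measured by droplet single-cell RNA sequencing of transcript 5′ ends, with a V(D)J kit and short cDNA added back, per the labels' protocols. Cells were released by dispase, then trypsin and EDTA, and frozen. The deposited values are raw UMI counts per gene and cell, made with Cell Ranger 3.1.0 on build mm10 per the submitters' processing notes. Annotation version and strand setting are not given in the sources used here.

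Barcodes under 500 genes or over 10% mitochondrial UMIs were dropped, which left 5340 of 6078 (library totals 15926683, 24480473 and 28176712 UMIs). A cell meeting several class rules took the first of follicle, granular, then the keratin classes. Doublets were not removed. Scrublet (scanpy 1.11.5) marked 30, left out in an alternative.

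UMIs were added up per library and class (10 cells or more) for edgeR 4.0.16 under R 4.3.3, with its low-count filter, TMM scaling and library as a block. Benjamini-Hochberg adjustment of the quasi-likelihood test covered every gene tested, with 0.05 as the threshold for a call. The block pairs classes by construction, since each library gives every class. Deviations from class means correlated between classes of a library with r from 0.0133 to 0.215 across genes. DESeq2 1.42.0 was an alternative. Shares were compared by exact permutation over libraries. The tests were tried first on simulated data. Values were given for members with the 10 highest basal means and those not lower in both steps or higher in any comparison. They were also given for members with the 3 highest and 3 lowest spinous to basal ratios and the 3 least often found with other members. Of the 3 largest rises and falls of each list only some were given. The same holds for the 12 largest of each with at least 20 CPM among other genes in basal cells. Elovl4, Elovl1 and some further members were named after their values were seen. Positions come from GENCODE M21. The members and lists were chosen with earlier results of these data known.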

Additional observations from a re-analysis of the deposited data

How the results depend on the processing

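Of 1021 alternative values, 557 for single genes kept their direction and side of the threshold, and 322 counts, levels and shares stayed within 1.5 times or 1 SD. Some alternatives were chosen after seeing the data. They were leaving out cells with 10 or more UMIs of the set, the 10 or more and 38-gene counts, and the cut at 5000 UMIs per cell. With cells of 10 or more UMIs of the set left out, 1 member was lower and 1 higher in transitional against basal cells, 1 lower in spinous, 7 lower and 3 higher in granular and 1 lower in follicle cells. Log2 changes turned to 0.28 (Top2a) and 2.98 (Ttk) in transitional cells and to 0.15 (Top2a) and 0.28 (Kif23) in spinous cells. A keratin threshold of 1% gave 571 genes higher and 546 lower in transitional, and 1161 and 460 in spinous cells, with 0 members lower there and Kif23 at 0.63; 0.25% gave 2482 lower in spinous cells, Pttg1 at -0.01 in transitional cells and a spinous level of 134. Total UMIs without TMM gave 1009 higher and 3166 lower (spinous, Pttg1 -0.21), 1958 and 6736 (granular, members 5 and 5), and 426 lower (follicle, members 2, Pttg1 0.03). DESeq2 gave 2 follicle members lower, and 606 genes higher and 231 lower in basal cells with 3 or more UMIs. No filter on low counts gave 5 granular and 27 follicle members lower.

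Each library gives every class, so the main fits hold the replicate block. Without the block, 4 follicle members and 704 genes in basal cells with 3 or more UMIs were lower, and no other count of calls moved over 1.5 times. Follicle members lower were 16 and genes lower 454 at 5% mitochondrial UMIs, where the basal level was 3529 and the follicle share 19%. They were 5 with 1000 genes per cell and 20 without doublets. Leaving out each replicate in turn gave 602 to 1189 genes higher and 387 to 824 lower in transitional, 1396 to 1744 and 951 to 1319 in spinous, 598 to 867 and 404 to 546 in follicle cells, 1 to 29 follicle members lower, and 853 to 1206 higher and 377 to 918 lower in basal cells with 3 or more UMIs. The lowest values came without replicate 3, or without replicate 2 for follicle genes lower and the basal cells, and Pttg1 in transitional cells went from -0.04 without replicate 2 to 0.19 without replicate 3.

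The share with 3 or more UMIs depended on the count and on depth. With 2 or more it was 47.1% (basal), 47.4% (transitional), 58.8% (spinous), 30.6% (granular) and 22.5% (follicle), with 5 or more 22.7%, 13.3% and 12.1% in the first 3, and with 10 or more 18.4%, 7.16%, 0.924% and 2.35% in the first 4. Thinned to 3000 UMIs these 4 were 18.9%, 9.39%, 1.25% and 1.67%. At 1500 they were 16.5%, 7.05%, 0.234% and 1.88%, and at 6000 the last 3 were 11.5%, 6.32% and 1.96%, and follicle cells 21.9%. Without Pttg1 and Ttk the unthinned share was 13.5% in transitional and 7.92% in spinous cells, and the spinous level 70.8, or 125 without Ttk alone. The cause of these shifts was not tested. Depth limits the follicle and transitional values, which rest on 122 and 196 cells.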
